A study of Homo sapiens and Mus musculus with 33 samples.

Results

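Of the 68330 groups of overlapping annotated 3' UTR rows in the Jurkat SLAM-seq tables, 2775 were long 3' UTRs with enough reads to describe. A group was counted as a member when it held a row of 3000 nucleotides (nt) or more, outside the mitochondrial chromosome, with at least 300 reads summed over 9 libraries, and the long row with the most reads stood for it. The tables hold 122255 rows in all, many of them nested alternatives of the same transcript end. The comparison rows were 8655 groups represented by a row of 300 to 3000 nt under the same read minimum.

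The 3' UTR is the part of a messenger RNA between the stop codon and the poly(A) tail. It is where microRNAs and RNA-binding proteins such as AU-rich element and Pumilio factors bind, and through them it can set how long a transcript lasts and where it is translated. Many genes carry several poly(A) sites and so make short and long forms of the same 3' UTR. Genes of transcription factors, kinases and other regulators are known for long 3' UTRs, and genes of ribosomal proteins for short ones.

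Jurkat is a human leukaemic T cell line, and these libraries were made from its clone E6-1. The cells were given 4-thiouridine (4sU), a uridine analogue that enters newly made RNA and, after alkylation with iodoacetamide, is read as C in place of T. There were 3 control libraries, 3 treated with CPT at 50 nM and 3 treated with ETO at 1 µM, and the titles of all 9 name 4sU. CPT and ETO are common abbreviations for the topoisomerase poisons camptothecin and etoposide, which the labels do not spell out, and the labels and tables used here do not state the 4sU dose, the length of treatment or the control vehicle. No unlabelled Jurkat library was among the 9, so the share of reads converted without 4sU was not measured here.

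With each group of rows counted once, the control libraries held 32917933 to 38991249 reads, the CPT libraries 19049328 to 23892962 and the ETO libraries 24760583 to 40839672. Reads with a conversion numbered 675933 to 764751, 234233 to 294359 and 533955 to 885130 in the same order. Mitochondrial rows held 1.05 to 1.24% of reads in control, 5.31 to 6.68% with CPT and 2.88 to 3.03% with ETO. T cell markers were present, with 11 of 14 above 1 CPM (a read count scaled to library size) in every library and a summed level of 2258 to 2644 CPM. Of the markers of other cells, 0 of 5 for B cells (2.08 to 5.10 CPM in sum), 0 of 6 for myeloid cells (1.47 to 4.67), 0 of 5 for erythroid cells (0.154 to 0.696) and 1 of 4 for fibroblasts (8.23 to 22.5) passed that level.

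The members had a median length of 4357 nt, with quartiles of 3551 and 5816.5 nt. There were 1762 members of 3000 to 5000 nt, 868 of 5000 to 10000 nt and 145 of 10000 nt or more. A gene name could be given to 2606 members, and 2548 of these were rows of protein-coding genes and 58 of long noncoding RNAs, whose rows stand in the same annotation. Close to the threshold, MIR4453HG had a row of 3000 nt and NNT and VASH2 rows of 3001 nt, with control labelled shares of 21.8%, 1.10% and 3.45%. On the other side TMED7 had a row of 2999 nt and CANX and RDH5 rows of 2997 nt, with shares of 5.15%, 1.98% and 1.47%. The reads of NNT lie within a nested row of 1047 nt, and 99.95% of those of CANX mapped to several places.

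An annotated length need not be the length in use, which was not measured here. In 245 members at least 90% of the reads were counted in a nested row shorter than 3000 nt. Reads counted there can reach beyond the nested row, which may stand anywhere in the long one. The ribosomal protein gene RPL27A has a long row of 4066 nt, but at least 90% of its reads were counted in a row of 41 nt. For TPT1, which encodes a translationally controlled tumour protein, the nested row was 188 nt, for the ribosomal protein gene RPL13 910 nt and for HMGB1, a chromatin protein, 1507 nt. Of the reads of RPL13 and HMGB1, 19.3% and 65.1% mapped to several places. The long rows differed from the comparison rows in other ways too. Their median T content was 31.2% against 29.3%, the median span of their genes was 57571 bp against 28579 bp, and 7.66% of their reads mapped to several places against 16.0%.

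In control cells the long 3' UTRs carried more newly made RNA per read than the shorter ones. The labelled share is the percentage of a row's reads that hold a T-to-C conversion, called converted reads here. The median over 2334 long rows covered by 100 reads or more in every library was 3.44%, 3.37% and 3.33% in control libraries 1, 2 and 3. The median over 6527 comparison rows was 2.55%, 2.47% and 2.47% in the same libraries. The long rows were higher in each library, by more than the spread between libraries, with group means of 3.38% ± 0.055 (SD, n = 3) and 2.50% ± 0.049 (SD, n = 3). With the minimum of 100 reads asked only of the control libraries, which 2505 long and 7247 comparison rows met, the difference was 0.912 percentage points. The rows share libraries and are not replicates, so no p-value is attached to it.

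The share did not keep rising with length. In control it was 1.02% for rows under 300 nt, 1.96% for 300 to 1000 nt, 2.84% for 1000 to 2000 nt and 3.37% for 2000 to 3000 nt. Among the long rows it was 3.58% for 3000 to 5000 nt, 3.37% for 5000 to 10000 nt and 3.04% for 10000 nt or more. The step at the 3000 nt threshold was therefore small, and the difference between long and comparison rows came mostly from rows under 2000 nt. Long rows took 16.4% ± 0.17 of all control reads but 24.6% ± 0.21 of the converted ones (SD, n = 3).

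**Figure D1:**
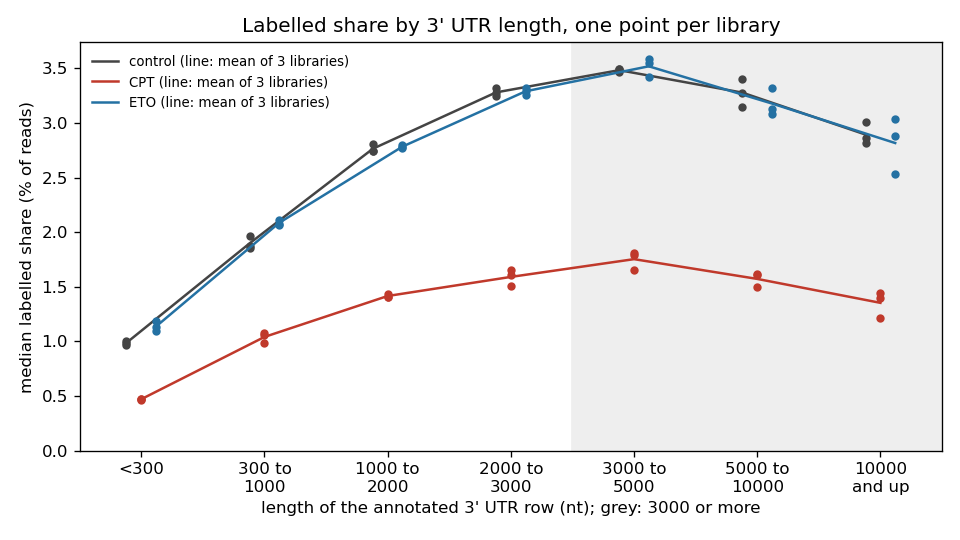
Median labelled share (percent of reads, vertical axis) by annotated row length (nt, horizontal axis) over rows with at least 100 reads in every library; points are the 9 libraries and lines the means of 3. The medians climb up to the rows of 3000 to 5000 nt and are lower again in the longest rows, and the CPT libraries lie below the others at every length.

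T content moves with this result, since a read over more T can show a conversion more easily. The mean number of T covered by a read was 28.6 in long and 26.9 in comparison rows. Counted per 100 covered T, conversions had a median of 0.276 ± 0.0040 in long rows and 0.213 ± 0.0025 in comparison rows (SD, n = 3). Within rows of 31 to 34% T, the control share was 3.81% over 700 long rows and 3.26% over 1320 comparison rows. In rows of 22 to 25% T it was 1.92% and 1.57%. The long rows were higher in each of the 7 bins of T content, 5 bins of expression and 5 bins of gene span, by amounts that differed. For rows above 300 CPM the shares were 1.99% and 1.15%, and for genes under 20000 bp they were 3.45% and 2.11%.

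**Figure D2:**
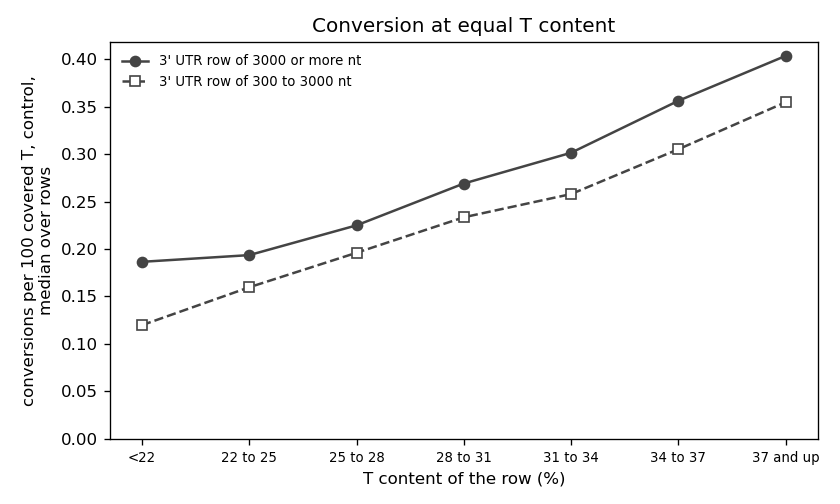
Conversions per 100 covered T in control (vertical axis, median over rows) against the T content of the row (percent, horizontal axis), for long rows (filled) and rows of 300 to 3000 nt (open). Both climb with T content, and the long rows lie above the shorter ones in each bin, for example 0.301 against 0.258 at 31 to 34% T.

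The highest and lowest control shares were ranked among members covered by 100 reads or more in every control library, and the highest were many times the median. MIR4453HG, with 84, 96 and 94 control reads, and TGFBR3, with 16, 19 and 7, were below that minimum and stood outside the ranking at 21.8% ± 8.2 and 35.1% ± 23 (SD, n = 3). KLF6, a zinc finger transcription factor, had 23.6%, 23.7% and 21.6% of its reads converted in the control libraries. IER5, an immediate early response gene, had 18.6%, 18.7% and 20.3%. MEX3B, an RNA-binding ubiquitin ligase, stood at 21.4% ± 3.3, KIAA0232 at 20.2% ± 2.6 and PARD6B, a cell polarity protein, at 20.1% ± 1.7 (SD, n = 3). SPRY4, an inhibitor of receptor kinase signalling, averaged 23.0% ± 10 (SD, n = 3) over only 114 to 125 reads a library, so its place among these is uncertain. The KLF6 and IER5 values lay within a few percentage points of each other in the 3 libraries.

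At the other end were genes whose reads hardly held conversions. MGMT, a DNA repair enzyme, had 0.0273%, 0.155% and 0.0693%. RPL27A had 0.149%, 0.112% and 0.127% over 160109 to 204314 reads a library, so its low share rests on far more reads than those around it. TRAPPC5, a trafficking complex subunit, had 0.108% ± 0.076 (SD, n = 3). MGMT, RPL27A and TRAPPC5 are among the members whose reads were mostly counted in a shorter nested row. ZFHX3-AS1, an antisense transcript, stood at 0.128% ± 0.22 (SD, n = 3). CD38, an ectoenzyme of T cells, had 0 of 591 control reads converted, which allows a share of up to 0.508%, and CLYBL, a mitochondrial enzyme, had 0 of 366, which allows up to 0.820%. These limits are 3 counts of the total and cover counting error only.

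With CPT the labelled share of long 3' UTRs was lower than in control, and so was that of the comparison rows. The median long-row share was 1.59%, 1.70% and 1.73% in the CPT libraries and 3.34%, 3.32% and 3.41% in the ETO libraries. The CPT libraries lay below all control libraries, and the ETO and control libraries overlapped. Comparison rows averaged 1.29% ± 0.042 with CPT and 2.60% ± 0.017 with ETO (SD, n = 3). Among rows with at least 100 converted control reads, the CPT share was a median of 0.544 of the control share in 1411 long rows and 0.584 in 3354 comparison rows. The ETO ratios were 1.01 and 1.04. In bulk libraries fewer cells of a type and less RNA per cell cannot be told apart. The mitochondrial share of reads moved with CPT as given above, and its part in these changes was not tested.

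Row by row, the ratio of converted to other reads was tested in 2277 members with edgeR's quasi-likelihood test, at a Benjamini-Hochberg adjusted p under 0.05 over 9292 rows. With CPT the ratio fell in 623 members, 27.4% of those tested, where 22.8% of all rows tested fell. The median log2 change was -0.99 in members and -0.86 in all rows. No member was higher (0 calls, where 0.172% of all rows were called), with 5 members at an unadjusted p under 0.05 in that direction and 0 by DESeq2. Without control library 1, 2 or 3 the 623 calls became 58, 91 and 79. ROCK2, a kinase of the actin cytoskeleton, had shares of 6.02%, 5.17% and 5.00% in control and 0.701%, 0.647% and 1.25% with CPT. Those groups were far apart, at a log2 change of the ratio of -2.74 ± 0.39 (SE, adjusted p = 0.00376).

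With ETO 4 members had a higher ratio, against 0.355% of all rows, and 0 had a lower one, against 0.043%, with 56 members at an unadjusted p under 0.05 in that direction and 2 called by DESeq2. The 4 were IKZF2, PDK1, the antiviral RNA-binding gene ZC3HAV1 and an unnamed row, and leaving out any 1 library of either group took the count to 0. IKZF2, which encodes the transcription factor Helios, had 3.54%, 3.51% and 2.96% in control and 7.34%, 6.51% and 7.96% with ETO. Its groups did not overlap, and its log2 change was 1.18 (adjusted p = 0.0186).

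New RNA was compared next as converted reads scaled to the converted reads of each library, so that a change is relative to the other new RNA of the same cells. With CPT the long 3' UTRs lay lower on this scale than shorter ones. Of 2277 members tested, 35 rose (1.54%, where 3.34% of all 9292 rows tested rose) and 88 fell (3.86%, where 2.76% fell). The median log2 change was -0.23 in members, -0.07 in all rows and -0.03 in comparison rows. The other 498 members had too few converted reads to be tested. Without control library 1, 2 or 3 the 88 became 25, 25 and 24 and the 35 became 12, 15 and 13. Without CPT library 1, 2 or 3 the 88 became 129, 143 and 148. In 11 rising and 20 falling members the call held without each single library. When each library was scaled to all its reads instead, the median of all rows moved from -0.07 to -0.88. The calls among members became 7 rising and 972 falling, and the share of all rows called on that scale was not counted. The median difference between long and comparison rows stayed at -0.20.

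Within the long rows the CPT change grew with length. Its median was -0.20 at 3000 to 5000 nt, -0.26 at 5000 to 10000 nt and -0.47 at 10000 nt or more, where 10 of 121 rows fell. Rows under 300 nt had a median of 0.17. In single libraries, on the scale of log2(CPM + 0.5) against the control mean, the median over long rows minus that over comparison rows was -0.18, -0.21 and -0.16 with CPT. It was -0.11, -0.10 and -0.11 with ETO and between -0.01 and 0.02 in control. The CPT, ETO and control libraries did not overlap in this difference. The control libraries are part of the mean they are set against, which holds them close to it. The CPT libraries also held fewer converted reads, and the part of this was not tested.

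**Figure D3:**
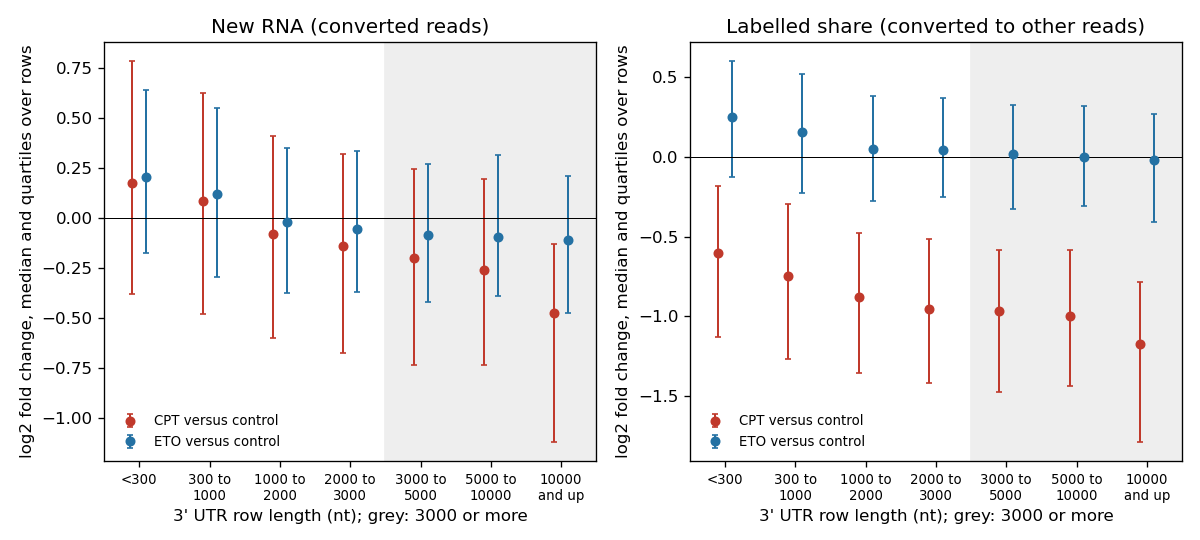
Median log2 fold change against control (points) with quartiles over rows (bars) by annotated row length (nt), for converted reads (left) and for the ratio of converted to other reads (right), with CPT in red and ETO in blue. The CPT medians fall from 0.17 in the shortest to -0.47 in the longest rows on the left, and the quartiles of neighbouring lengths overlap widely.

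Gene span moved with the CPT change. In members of genes under 20000 bp the median log2 change of new RNA was 0.01, from 20000 to 50000 bp it was -0.13, and above 200000 bp it was -0.68. The comparison rows showed 0.13, -0.01 and -0.48 in the same bins. Above 200000 bp 11.1% of the members fell, against 5.56% of the comparison rows. In each of the 5 span bins the long rows had the lower median, and the gap was narrowest from 100000 to 200000 bp, at -0.35 against -0.31. With ETO the members' medians were 0.02 under 20000 bp and -0.08 above 200000 bp, with the lowest, -0.18, between 50000 and 100000 bp. The part of gene span in the difference by 3' UTR length was not tested beyond these bins.

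**Figure D4:**
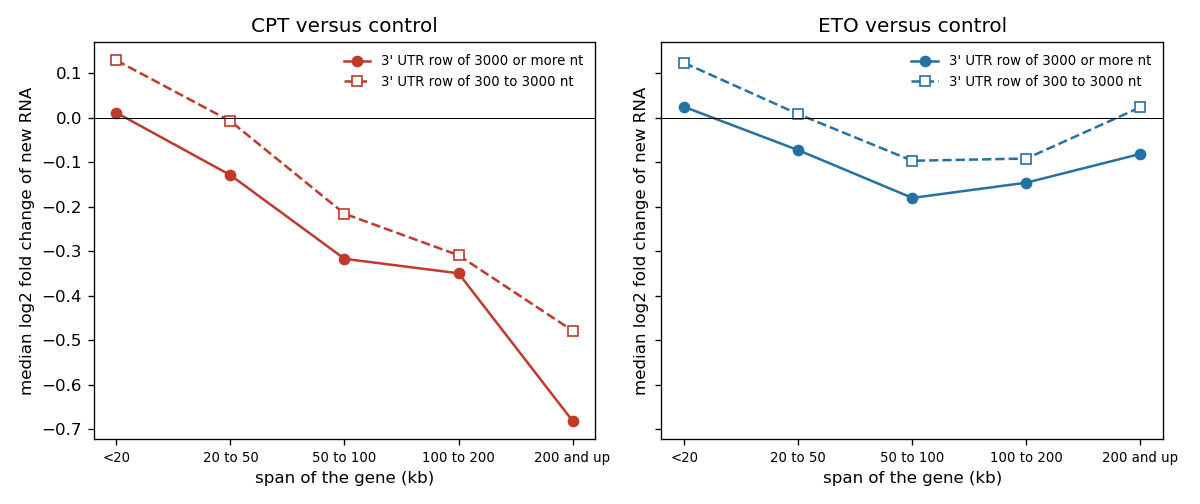
Median log2 fold change of new RNA (vertical axis) by the span of the gene in kilobases (horizontal axis), with CPT (left) and ETO (right), for long rows (filled circles) and rows of 300 to 3000 nt (open squares). With CPT both lines run down with gene span, to -0.68 and -0.48 in the longest genes, and the ETO lines stay between -0.18 and 0.12.

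BTG1 and STC2 were among the members that rose with CPT. BTG1, an antiproliferative gene with a 3802 nt row at chr12:92140278-92144079, had 198, 164 and 191 converted CPM in control, 641, 487 and 717 with CPT and 368, 321 and 225 with ETO. The CPT libraries lay above all others. The log2 change with CPT was 1.73 ± 0.20 (SE, adjusted p = 4.64e-06), and with ETO 0.72 ± 0.20 (SE, adjusted p = 0.0651), which missed the threshold. The labelled share of BTG1 was lower with CPT, at 3.91% ± 0.72 against 8.79% ± 1.9 in control (SD, n = 3). The log2 change of its ratio of converted to other reads was -1.24 (adjusted p = 0.0118, 0.0681 at its weakest without a library). STC2, a secreted glycoprotein, has a 3134 nt row at chr5:173314713-173317846. It had 24.0, 54.5 and 47.4 converted CPM in control, 166, 168 and 159 with CPT and 234, 243 and 202 with ETO. Its 3 groups did not overlap, and the log2 changes were 1.96 ± 0.32 (SE, adjusted p = 0.000319) with CPT and 2.42 ± 0.30 (SE, adjusted p = 1.47e-05) with ETO.

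The nuclear noncoding RNA MALAT1 has a 4937 nt row at chr11:65498969-65503905 that is annotated like a 3' UTR though the transcript has no coding part. Its converted reads rose by 1.68 ± 0.14 with CPT (SE, adjusted p = 1.1e-08) and 1.05 ± 0.13 with ETO (SE, adjusted p = 1.91e-05) on the log2 scale. E2F2, a cell cycle transcription factor with 99.9% of its reads mapping to several places, had 371, 432 and 378 converted CPM in control and 909, 716 and 721 with CPT. The groups were apart, at a log2 change of 0.99 ± 0.15 (SE, adjusted p = 0.000174), but with libraries scaled to all reads this became 0.17 (adjusted p = 0.38). MIRLET7A1HG, the host transcript of let-7 microRNAs, likewise rose by 1.11 on the main scale and stood at 0.30 (adjusted p = 0.26) on the other. SRSF6, a splicing factor, rose by 1.01 ± 0.13 (SE, adjusted p = 1.12e-05) and stood at 0.20 on the scale of all reads. The labelled share of E2F2 was lower with CPT, at 2.37% ± 0.52 against 4.13% ± 0.25 in control (SD, n = 3). The log2 change of its ratio of converted to other reads was -0.85 (adjusted p = 0.0129, 0.0683 at its weakest without a library).

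Other rising members lost the call without a single library. SLC7A11, the cystine transporter, had 22.5, 42.7 and 26.4 converted CPM in control, 110, 82.3 and 115 with CPT and 147, 151 and 153 with ETO. The control libraries were the lowest. The CPT change of 1.73 (adjusted p = 0.00632) reached an adjusted p of 0.0617 at its weakest, and the ETO change of 2.29 ± 0.36 (SE, adjusted p = 0.00029) kept the call throughout. GINS4, a replication factor, JDP2, a repressor of AP-1, SLFN5, a Schlafen family gene, and TGFBR3, a TGF-beta co-receptor, rose by 2.16, 2.91, 1.73 and 3.21 with CPT, and their highest adjusted p without a library was 0.0713, 0.0818, 0.0767 and 0.139. JDP2, with 4, 10 and 11 converted control reads, and TGFBR3 could pass the minimum for testing only through treated libraries. Their rises were thus favoured in advance and are a description. The reads of JDP2 were mostly counted in a nested row of 982 nt and those of GINS4 in one of 2943 nt. KLF6 rose by 0.66 on the main scale (adjusted p = 0.0288, 0.173 at its weakest without a library), a direction that turned to -0.16 with libraries scaled to all reads.

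CDK6 and ETV6 were among the members that fell with CPT. CDK6, a cell cycle kinase with a 10219 nt row at chr7:92604921-92615139, had 795, 793 and 743 converted CPM in control, 446, 290 and 314 with CPT and 716, 848 and 700 with ETO. CPT was lower in all 3 libraries and ETO overlapped control. The log2 change with CPT was -1.15 ± 0.16 (SE, adjusted p = 5.45e-05). ETV6, an ETS family repressor, had 304, 311 and 389 converted CPM in control, 101, 115 and 119 with CPT and 368, 367 and 318 with ETO. Again only the CPT libraries stood apart, at -1.58 ± 0.22 (SE, adjusted p = 4.58e-05) for the 4331 nt row at chr12:11891047-11895377.

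ROCK2 had 170, 141 and 133 converted CPM in control, 28.4, 25.1 and 44.2 with CPT and 124, 110 and 78.8 with ETO. Its log2 change was -2.19 ± 0.40 with CPT (SE, adjusted p = 0.00102) and -0.51 ± 0.32 with ETO (SE, adjusted p = 0.578). MAGI1, a scaffold protein of cell junctions whose gene spans 685393 bp, had 81.2, 63.4 and 81.7 converted CPM in control, 0, 0 and 8.85 with CPT and 79.3, 49.1 and 72.6 with ETO. The CPT group held 2 converted reads and the control group 159, a ratio of 28.4 with a 95% counting interval of 7.74 to 237 (exact binomial). TNRC6C, a partner of Argonaute in microRNA silencing, fell by 0.81 on the log2 scale (SE 0.17, adjusted p = 0.00381). Its reads were mostly counted in a nested row of 2619 nt. GRK3, a receptor kinase, fell by 2.30 on that scale (adjusted p = 0.0043). FAF1, a regulator of cell death, fell by 2.71 (adjusted p = 0.00461), with its reads mostly counted in a nested row of 164 nt.

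Several of the steepest falls rest on no converted reads at all with CPT. Of the members tested, 18 had 0 converted reads in the 3 CPT libraries together, and 9 of these were called lower. Such a member could pass the minimum for testing only through the libraries where it was higher, so it had to differ, and the count and the bounds that follow are a description. ZNF780A, a zinc finger gene with 99.9% of its reads mapping to several places, averaged 31.8 ± 11 converted CPM in control (SD, n = 3) and was at least 7.96-fold lower with CPT, against a floor of 3 counts over the group. It kept its call without each library (highest adjusted p = 0.0482). SPRY4, GDAP2, WASF3, SLC35F5, PPM1H and FBXO41 were at least 9.50-, 8.82-, 6.99-, 6.74-, 6.66- and 6.08-fold lower, and each of these lost the call in at least 1 case. The median over all members tested was -0.23 also with these rows set at their bound. It could not move, since each bound lies below that median. RAG1, the recombinase of antigen receptor genes, had 102, 57.5 and 98.8 converted CPM in control and 24.4, 0 and 4.42 with CPT. It fell by 3.17 on the log2 scale (adjusted p = 0.00857, 0.0526 at its weakest without a library).

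With ETO, in new RNA 21 members rose (0.922%, where 1.21% of all rows rose) and 9 fell (0.395%, where 0.667% fell), and the median log2 change was -0.08 in members and 0.02 in all rows. Without a single library the rising calls numbered 10 to 15 and the falling ones 4 to 8, each of the control libraries taking them to 10 to 12 and 4 to 5. With only the groups compared in the fit, the counts were 91 rising and 118 falling of 2202 tested with ETO and 24 and 35 of 2017 with CPT. Which treatment had more calls thus depends on the libraries fitted together. The share of all rows called in these fits was not counted. IKZF2 had 305, 332 and 275 converted CPM in control, 369, 508 and 429 with CPT and 938, 893 and 1084 with ETO. The ETO libraries were far above the rest, at a log2 change of 1.68 ± 0.15 (SE, adjusted p = 3.78e-07) for the 7669 nt row at chr2:212999691-213007359. SATB1, a chromatin organiser of T cells, had 400, 475 and 470 in control, 313, 519 and 447 with CPT and 1022, 1083 and 1024 with ETO.

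The CPT and control libraries of SATB1 overlapped, and the ETO change was 1.22 ± 0.15 on the log2 scale (SE, adjusted p = 1.74e-05). Its reads were mostly counted in a nested row of 1230 nt. BCL11B, a T cell identity factor, had 1443, 1508 and 1442 converted CPM in control, 1327, 1303 and 1535 with CPT and 2422, 2365 and 2137 with ETO. Only the ETO libraries stood apart, at 0.66 ± 0.098 (SE, adjusted p = 0.000166). ARID5B, a DNA-binding chromatin factor, rose by 1.21 ± 0.23 with ETO (SE, adjusted p = 0.0029). The CPT values of IKZF2 (0.52) and ARID5B (0.29) did not pass the test and turned to -0.29 and -0.53 with libraries scaled to all reads. On that scale SATB1 and BCL11B fell by 0.88 and 0.89 with CPT. The median there was -0.88 over all rows and -1.04 over members, so SATB1 and BCL11B lay close to the typical row.

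HMGCS1, an enzyme of cholesterol synthesis, had the steepest fall with ETO among the 9 members called lower. Its 3661 nt row at chr5:43287470-43291130 had 779, 688 and 663 converted CPM in control, 175, 136 and 79.6 with CPT and 180, 169 and 212 with ETO. Both treatments lay below control. The log2 changes were -2.44 ± 0.22 with CPT (SE, adjusted p = 6.87e-08) and -1.92 ± 0.20 with ETO (SE, adjusted p = 1.15e-06). The reads of HMGCS1 were mostly counted in a nested row of 1736 nt. SCD, the stearoyl-CoA desaturase, had 1252, 1214 and 1162 in control, 783, 641 and 606 with CPT and 569, 724 and 673 with ETO. Its changes were -0.84 ± 0.14 with CPT (SE, adjusted p = 0.000294) and -0.88 ± 0.13 with ETO (SE, adjusted p = 0.000157). SRSF3, a splicing factor with 29.8% of its reads mapping to several places, and PPP4R2, a phosphatase subunit, fell by 0.66 (adjusted p = 0.00129) and 0.87 (adjusted p = 0.00341) with ETO. CPT and ETO share their control libraries, and their values are given side by side only as each comparison's own.

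**Figure D5:**
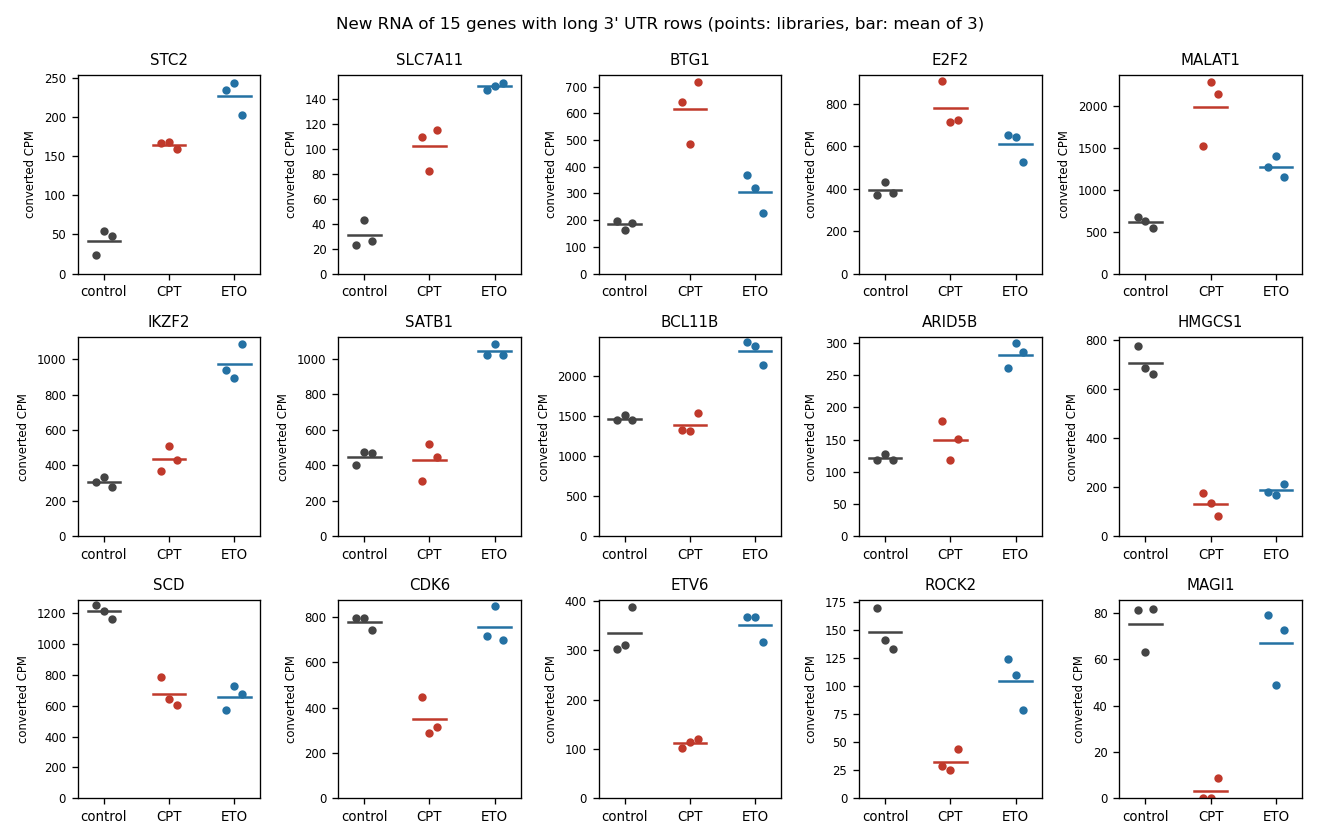
Converted CPM (vertical axes, each from 0) of 15 members in control, CPT and ETO; points are libraries and bars the means of 3. The ETO libraries are highest in IKZF2, SATB1, BCL11B and ARID5B, the CPT libraries are lowest in CDK6, ETV6, ROCK2 and MAGI1, and both treatments lie below control in HMGCS1 and SCD.

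Set directly against ETO, CPT had 13 members higher (0.571%, where 0.861% of all rows were) and 33 lower (1.45%, where 1.02% were). Without ETO library 1, 2 or 3 these became 5, 6 and 3 higher and 13, 14 and 15 lower, and without CPT library 1, 2 or 3 they became 20, 19 and 19 higher and 56, 59 and 72 lower. Among the 12 lower calls that held without each single library were RORB (-1.43 ± 0.20), SATB1 (-1.29 ± 0.16), IKZF2 (-1.15 ± 0.16), CDK6 (-1.11 ± 0.16) and ETV6 (-1.65 ± 0.22), as log2 differences with SE. NEURL1B, a ubiquitin ligase of Notch signalling, was the member whose higher call held, at 1.90 ± 0.32 (SE, adjusted p = 0.00122).

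Total RNA, all reads of a row whether converted or not, could be tested in all 2775 members. With CPT 566 rose (20.4%, where 22.9% of 17549 rows rose) and 965 fell (34.8%, where 24.6% fell), with a median log2 change of -0.10 against -0.0018 in all rows. With ETO 489 rose (17.6%, where 17.1% rose) and 624 fell (22.5%, where 16.9% fell), with a median of -0.03 against 0.01. Of the 8655 comparison rows, 26.0% rose and 29.0% fell with CPT, and 21.2% rose and 20.6% fell with ETO. The members' rises thus lay below those of the comparison rows with each treatment, and their falls above. Most changes were small. With CPT 115 rising and 86 falling members passed the threshold with at least a 2-fold change. The share of all rows that did so was not counted, so these counts are no result about long rows.

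RAG1 had 19.3, 17.5 and 20.8 total CPM in control, 2.15, 2.08 and 2.51 with CPT and 9.05, 10.2 and 10.2 with ETO. The 3 groups did not overlap, and the log2 changes were -3.10 ± 0.16 (SE, adjusted p = 7.47e-13) and -0.97 ± 0.13 (SE, adjusted p = 5.46e-06). PDK1, a kinase that restrains pyruvate oxidation, had 126, 117 and 114 in control, 22.7, 24.7 and 21.0 with CPT and 42.1, 42.6 and 43.2 with ETO. It fell by 2.38 and 1.48 on the log2 scale in total RNA. Its new RNA stood at -1.20 (adjusted p = 0.359) with CPT and 1.04 (adjusted p = 0.497) with ETO. Its reads were mostly counted in a nested row of 1525 nt.

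TGFBR3 had 0.512, 0.584 and 0.191 total CPM in control, 15.0, 14.8 and 14.5 with CPT and 5.07, 7.80 and 6.65 with ETO. It rose by 5.12 ± 0.27 (SE) with CPT and 3.95 ± 0.27 (SE) with ETO, from a control level under 1 CPM. At that level TGFBR3 could reach the read minimum for members only through the treated libraries. Its rises in total RNA were thus favoured in advance and are a description, so no p-value is attached to them. ENPP1, an ectonucleotidase, had 4.13, 4.03 and 3.84 in control, 45.1, 44.2 and 45.1 with CPT and 19.4, 19.3 and 13.4 with ETO. Its log2 change with CPT was 3.49 ± 0.14 (SE, adjusted p = 1.03e-14). SLFN5 rose by 1.69 with CPT (adjusted p = 1.05e-12) and 0.47 with ETO (adjusted p = 0.000218). BTG1 and MALAT1 rose by 2.07 and 2.02 with CPT.

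ROCK2 had 60.1, 57.1 and 55.1 total CPM in control and 47.6, 46.0 and 43.0 with CPT, a log2 change of -0.33 ± 0.074 (SE, adjusted p = 0.000811). CDK6 and ETV6 fell by 1.06 and 1.60 in total RNA with CPT. IKZF2 rose by 0.60 in total RNA with ETO, and with CPT its total RNA fell by 0.22 (adjusted p = 0.00239). Total and new RNA are scaled to different library sizes, so the changes of a gene in the pools are not set against each other.

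The gene lists are read against the share of all rows called. In new RNA 3.34% of 9292 rows rose and 2.76% fell with CPT, and 1.21% rose and 0.667% fell with ETO. In total RNA 22.9% of 17549 rows rose and 24.6% fell with CPT, and 17.1% rose and 16.9% fell with ETO. Among the members themselves 20.4% rose and 34.8% fell with CPT in total RNA, and 17.6% and 22.5% with ETO. With few rows on a list, a count near these shares is no result about the list, and nothing below is called particular to one. The lists were written with earlier results of these data known, so a count above these shares is no test of a list either.

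Of the T lineage transcription factors, 22 of 43 had a long 3' UTR among the members, on 24 rows with a median control share of 5.61%. In new RNA 4 of the 23 tested were called higher with ETO, IKZF2, SATB1, BCL11B and BCL11A, where 1.21% of all rows were and the list's median was 0.08 against 0.02 over all rows tested. BCL11A only just passed, at 0.77 (adjusted p = 0.0496), and stood at an adjusted p of 0.319 at its weakest without a library and of 0.0615 with the replicate block. With CPT 1 rose, KLF6, and 3 fell, ETV6, TCF12 and BACH2, at a median of -0.07 in both the list and all rows. TCF12 fell by 1.32 and BACH2 by 1.94 on the log2 scale, with a highest adjusted p without a library of 0.0588 and 0.0900. The reads of TCF12 were mostly counted in a nested row of 2350 nt, and 99.8% of those of BACH2 mapped to several places. In total RNA 11 of 24 rose and 5 fell with ETO, where 17.1% of all rows rose and 16.9% fell, and 6 rose and 12 fell with CPT, where 22.9% rose and 24.6% fell.

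Of 32 genes of microRNA silencing and RNA decay, 17 had a member, among them AGO1, AGO2, AGO3 and AGO4, the small RNA binding proteins, DICER1, which cuts microRNA precursors, and TNRC6B. Their median control share was 3.39%. Total RNA fell in 11 of 17 with CPT, where 24.6% of all rows and 34.8% of the members fell, and in 4 with ETO, where 16.9% and 22.5% fell. The medians were -0.25 and -0.07, against -0.10 and -0.03 over the members, and the decay exonuclease XRN1 rose with CPT by 0.31 (adjusted p = 0.029). In new RNA TNRC6C alone passed the test with CPT. Of 29 genes of cholesterol and lipid synthesis, 6 had a member, and in total RNA HMGCS1, SCD, SC5D, STARD4 and ELOVL6 fell with each treatment while PCYT1A, an enzyme of phosphatidylcholine synthesis, rose. Those are 5 of 6 falling, where 24.6% of all rows fell with CPT and 16.9% with ETO.

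Of 61 signalling kinases and receptors, 36 had a member, on 37 rows. In new RNA PIK3R1, a regulatory subunit of PI3 kinase, rose with CPT by 0.95 (adjusted p = 0.0123; 0.14, adjusted p = 0.66, with libraries scaled to all reads), and ROCK2 and SPRED1 fell. PIK3R1 and SPRED1 reached an adjusted p of 0.0877 and 0.183 at their weakest without a library. The list's median was -0.39 with CPT and -0.25 with ETO. In total RNA 16 of 37 fell and 5 rose with CPT, where 34.8% of the members fell and 20.4% rose. Of the survival and cell cycle genes, 17 of 37 had a member, and BTG1 and E2F2 rose and CDK6 fell in new RNA with CPT. Ubiquitin ligases and deubiquitinases had members for 26 of 39 genes. Their CUL5 and FBXW2 fell by 1.00 and 1.16 with CPT in new RNA, with a highest adjusted p without a library of 0.134 and 0.164. Of 56 chromatin regulators 26 had a member. ARID2, a remodelling subunit, was the 1 of 26 members tested that was called with CPT in new RNA. It fell by 1.09 and reached an adjusted p of 0.191 without a library, with its reads mostly counted in a nested row of 2959 nt. In total RNA 4 of the 27 chromatin rows rose and 8 fell with CPT, where 22.9% and 24.6% of all rows did, so these counts are no result about the list.

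Transporters and membrane traffic genes had members for 24 of 38 genes, with SLC7A11 and SLC7A1, a cationic amino acid transporter, higher in new RNA with ETO. SLC7A1 rose by 0.81 (adjusted p = 0.012, 0.131 at its weakest without a library). In total RNA 5 of the 24 rose and 11 fell with CPT, where 20.4% of the members rose and 34.8% fell, and 7 rose and 8 fell with ETO, where 17.6% and 22.5% did. Of 23 factors of 3' end processing, which cut and polyadenylate transcripts, 6 had a member, and the total RNA of 3 fell with CPT, where 34.8% of the members fell: CPSF2 by 0.33, CPSF6 by 0.86 and NUDT21, which favours distal poly(A) sites, by 0.16 on the log2 scale.

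The 6 longest named members ran from 22929 to 205012 nt. LINC02456, a noncoding RNA of 205012 nt, had only 1451 reads over the 9 libraries, 17.0% of them mapping to several places, with shares of 8.28%, 3.57% and 6.28% in control. SMAD2, a mediator of TGF-beta signalling with a 32870 nt row at chr18:47808957-47841826, had 3.75%, 3.28% and 3.44% in control, 2.08%, 2.42% and 1.03% with CPT and 2.03%, 3.46% and 2.90% with ETO. The SMAD2 CPT libraries lay below the control ones, and its new RNA changes of -0.55 (adjusted p = 0.299) and -0.62 (adjusted p = 0.355) did not pass the test. ZBTB20, a transcriptional repressor with a row of 24504 nt in a gene of 832789 bp, had 36.1, 26.5 and 51.4 converted CPM in control and 0, 0 and 4.42 with CPT. The ratio of 81 control reads to 1 CPT read was 29.0 after scaling, with a 95% counting interval of 5.05 to 1158. PCDH9, RPS6KA5 and NOPCHAP1, the others of the 6, did not pass the test in new RNA.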

How the data were processed

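Per the file headers, the authors made 1 table per library with slamdunk 0.4.3, and the deposited values used here are counts: reads, reads with a T-to-C conversion, covered T and conversions for each annotated 3' UTR row. Coordinates are GRCh38, per the submitters' processing notes. Filter settings and the least number of conversions per converted read are not stated in the labels or headers. Overlapping rows on a strand were joined and counted once. Names came from a RefSeq table by overlap of at least 50% of the row on the same strand, or by a gene end within 1000 bp, so they can be wrong where genes overlap.

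Counts were tested with edgeR 4.0.16 (R 4.3.3; filterByExpr, TMM, quasi-likelihood, 9 libraries in 1 fit), and the ratio of converted to other reads in a fit of 18 columns with a term for each library. DESeq2 1.42.0 was an alternative. Tables were handled in Python 3.11.15, and the tests were tested on simulated data. No label says that replicates are separate cultures, so p-values measure the spread between these libraries.

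Named members follow a rule: the 8 largest rises and falls per comparison among those past adjusted p 0.05 with at least 10 CPM and no overlap, the 6 longest, most read, highest and lowest in share, up to 4 per gene list, and 3 on either side of the threshold. SRSF6, RORB and list members without a call in new RNA were named after their values were seen. The members and lists were chosen with earlier results of these data known.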

Additional observations from a re-analysis of the deposited data

How the results depend on the processing

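Scaled to all reads, members called in new RNA numbered 7 higher and 972 lower with CPT, and 2 and 963 for CPT against ETO, of 2277 tested. On that scale the median of all rows was -0.88 with CPT and -0.92 for CPT against ETO. Shares of all rows called were not counted under the settings of this section, so its counts of calls describe the members only. DESeq2 called 65 higher and 130 lower with CPT, 37 and 31 with ETO, and 37 and 58 for CPT against ETO. In the labelled share it called 757 lower with CPT, and 11 higher and 2 lower with ETO. With only the groups compared, the counts were 24 and 35 of 2017 tested with CPT and 91 and 118 of 2202 with ETO, so the order of the treatments turned. They were 7 and 10 of 1869 for CPT against ETO, and 26 and 13 in the ETO labelled share. Without the filter 18 fell with ETO, and the ETO labelled share gave 10 and 2.

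Same-numbered libraries deviated together with correlations of -0.037 to 0.018 in new RNA and -0.13 to 0.026 in total RNA, so the numbers pair nothing here. With the replicate block 56 members were lower in new RNA with CPT, 397 in its labelled share, and 0 higher in the ETO labelled share.

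Without single libraries, the ranges were 12 to 44 higher and 24 to 148 lower with CPT, 10 to 15 and 4 to 8 with ETO, and 3 to 20 and 13 to 72 for CPT against ETO. For total RNA they were 462 to 524 and 867 to 962 with CPT and 359 to 417 and 498 to 526 with ETO, and for the labelled share 0 to 3 and 58 to 667 with CPT and 0 with ETO.

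The share difference of 0.912 points was 0.755 with 1000 reads, 0.574 at 28 to 34% T, 0.938 with under 1% multimapped reads, 0.716 from 5000 nt, 0.884 pooled, 1.01 without members held in a shorter row (chosen after seeing the data, which also left 2 ETO share calls), 0.894 to 0.905 without a library and 0.063 conversions per 100 T. The median log2 difference was -0.14 (CPT) and -0.12 (ETO) without the filter, -0.25 and -0.12 from 5000 nt, and -0.22 to -0.18 and -0.12 to -0.10 without a library. The cause of these shifts was not tested.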
